A study of Ovis aries with 6 samples.

Results

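Interferon-stimulated genes were followed in sheep cells of the adipose stromal vascular fraction, the mixed cell fraction of fat tissue that holds adipocyte precursors. The set was a list of 39 symbols, matched exactly to the gene names of the deposited table. Of these, 33 had a row among the 26425 rows, and 25 reached a mean of 1 FPKM over the 6 samples and were tested (FPKM is a read level corrected for gene length and library size). The other 8 matched members lay under that level. BST2, DDX60, HERC6, IFI27, ISG15 and USP18 matched no gene name and were not analysed here under those names.

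The cells carried either a vector for overexpression of MEOX2, a mesodermal homeobox transcription factor (3 samples), or the control labelled NC (3 samples). The table's column names give the prefix pHBLV, the name of a lentiviral vector, to all 6, so the controls were vector-carrying cells too. Samples without a vector were not analysed here, and the levels of these genes in such cells are therefore unknown. The labels call the cells adipocytes and give neither age, breed nor the number of animals. Nothing says that the 3 samples of a group came from separate animals or cultures, so p-values here cover sample-to-sample spread that could be technical.

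Type I interferons are secreted when a cell detects foreign nucleic acid, and they act through a receptor that activates the kinases JAK1 and TYK2. These phosphorylate STAT proteins, which join IRF9 and switch on a common set of antiviral genes. Many of the products bind, degrade or sense viral RNA, so the set includes both the sensors that start the response and the effectors that act against the virus. Fibroblast-like stromal cells, adipocyte precursors among them, can mount this response.

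MEOX2 itself averaged 9.98 ± 0.910 FPKM in NC and 132.9 ± 23.0 FPKM in cells given MEOX2 (SD, n = 3 each; limma adjusted p = 1.15e-05). Gene-level reads do not separate the introduced gene from the endogenous one. Whole reads recovered from the FPKM values totalled 11772772 to 12230863 per library. On the second principal component of all genes tested (22.2% of variance), NC sample 3 was the outlying library. Of 11 stromal progenitor markers, 10 were tested and 0 were called by limma. At an unadjusted p under 0.05, 3 were higher (PDGFRA, COL1A2 and LUM) and 3 lower (ENG, NT5E and CD34). Of all genes tested, 7.08% were higher and 6.35% lower at that level. With limma voom ENG was lower (adjusted p = 0.0352). COL1A1 averaged 10594 FPKM with MEOX2 and 9410 FPKM in NC, while CD34 averaged 0.642 and 1.37 FPKM and DLK1 had at most 2 reads. Of the adipocyte genes, ADIPOQ averaged 7.13 and 36.9 FPKM and LEP was listed at 0 throughout. Of 6 adipocyte markers tested, 5 were called lower with MEOX2 (ADIPOQ, FABP4, PPARG2, PLIN1 and CIDEC). Of all genes tested, 2.67% were called in either direction and 1.51% were called higher. PLIN1 and CIDEC lost their call with any 1 library left out. LPL, the other adipocyte marker tested, averaged 39.7 ± 4.28 FPKM with MEOX2 and 39.5 ± 2.45 FPKM in NC (SD, n = 3 each).

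Most of the interferon-stimulated genes were present at low to moderate levels and were slightly higher in the cells overexpressing MEOX2. The difference passed the threshold for none of them in the limma test of log2(FPKM + 1) values. In that test 0 of 25 members had an adjusted p under 0.05, against 350 of 13121 genes (2.67% in either direction, 1.51% higher). At an unadjusted p under 0.05, 6 of the 25 members (24.0%) were higher and 0 were lower, where 7.08% of all genes tested were higher and 6.35% were lower. Those 6 were IFIT3, CMPK2, MX1, OAS2, IFI6 and IFIT1. None of them was grouped here under RNA sensors or transcription factors, although OAS2 also responds to double-stranded RNA. With limma voom, which weights the recovered reads by their precision, 4 of the 25 passed an adjusted p of 0.05, all higher, against 2.36% of all genes called higher. These 4 were IFIT3, CMPK2, MX1 and OAS2.

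The log2 change was above 0 for 22 of the 25 members (88.0%), against 49.3% of all genes tested, and its median was 0.10, against -0.0027 for all genes tested. The 3 MEOX2 values all exceeded the 3 NC values for 7 members (28.0%), the 6 above and DHX58, against 9.60% of all genes; the reverse held for 0 members and 9.33% of genes. Log2 changes on this scale understate the change of genes near 1 FPKM. The members were listed with earlier results of these data known, so these shares describe the list and do not test it.

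**Figure D1:**
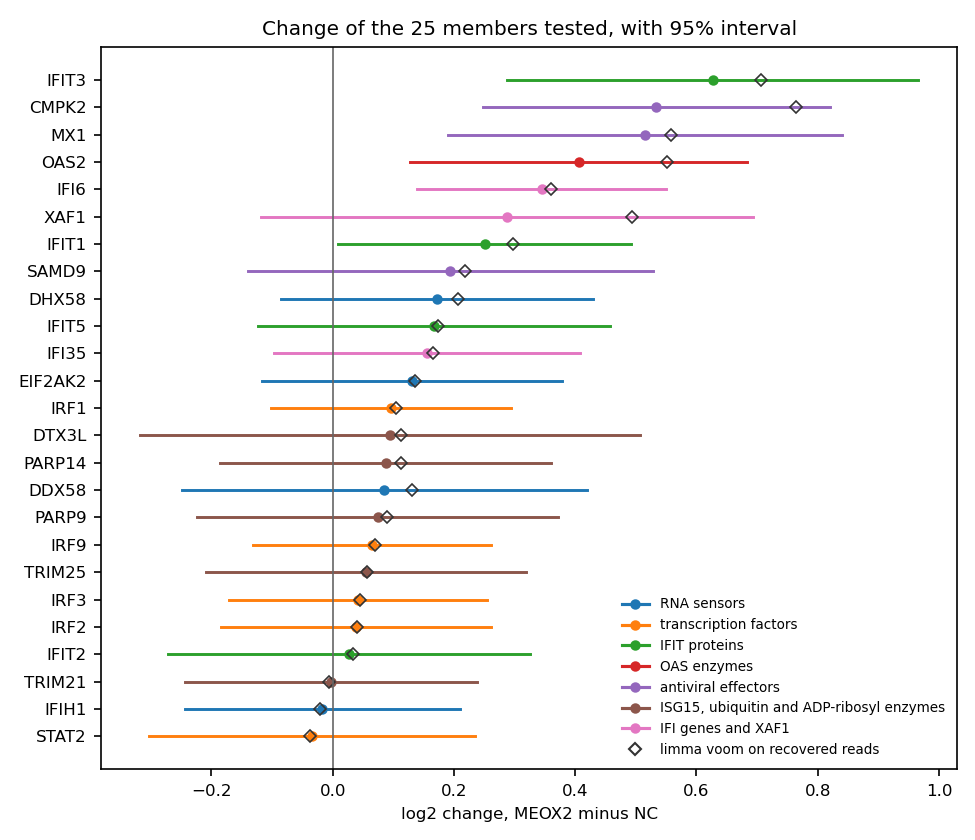
Log2 change (MEOX2 minus NC, horizontal axis) of log2(FPKM + 1) for each of the 25 members tested. Filled circles and bars give the limma estimate and its 95% interval, coloured by role, and open diamonds give the limma voom estimate. The 6 intervals that exclude 0 are those of IFIT3, CMPK2, MX1, OAS2, IFI6 and IFIT1, and 19 intervals contain 0.

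Some of the IFIT proteins bind the ends of viral RNA and block its translation. The 4 IFIT genes lie in a row on chromosome 22 of the table's annotation (the sources used here name no genome build). All are on the plus strand, with gaps of 14.2 to 17.2 kb. IFIT3 (ENSOARG00000014800, 10793261 to 10794709) was at 10.6, 9.87 and 8.51 FPKM in the MEOX2 samples, in order of replicate number, and at 5.35, 5.02 and 7.54 FPKM in the NC samples. The groups did not overlap, and NC sample 3 was the nearest of the controls to the MEOX2 samples. The group means were 9.67 ± 1.06 and 5.97 ± 1.37 FPKM (SD, n = 3 each), a 1.62-fold difference. The log2 change of IFIT3 was 0.63 (SE 0.15, limma adjusted p = 0.0729; limma voom adjusted p = 0.0103). Without NC sample 3, IFIT3 passed with limma too (adjusted p = 0.0212; 1.17% of all genes were called higher in that fit), while without any other single library it did not.

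IFIT1 (ENSOARG00000015177, 10811884 to 10820333), the cap-binding member of the family, was at 5.82, 5.28 and 5.46 FPKM with MEOX2 and at 4.32, 4.24 and 4.90 FPKM in NC. Its groups did not overlap either, although the step was smaller, 0.25 on the log2 scale (SE 0.11, limma adjusted p = 0.348). In IFIT1 and IFIT3 alike the highest library was MEOX2 sample 1, and the controls ran from NC sample 3 down to NC sample 2.

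The neighbouring IFIT2 and IFIT5 did not share all of that pattern. Neither was highest in MEOX2 sample 1, and both overlapped between the groups. IFIT5 did have the same order of controls. IFIT2 averaged 5.33 ± 0.418 FPKM with MEOX2 and 5.25 ± 0.919 FPKM in NC (SD, n = 3 each), and its highest library was NC sample 1. IFIT5 was the most abundant of all members tested, at 32.6, 36.7 and 31.2 FPKM with MEOX2 and 31.3, 24.3 and 34.3 FPKM in NC. The IFIT5 groups overlapped, NC sample 2 being the lowest library and NC sample 3 the second highest (log2 change 0.17, 95% interval -0.12 to 0.46). Reads shared between similar copies of one family cannot be told apart here.

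OAS2, an oligoadenylate synthetase that responds to double-stranded RNA, was at 3.05, 3.41 and 3.63 FPKM with MEOX2 and 2.21, 2.31 and 2.34 FPKM in NC. The NC libraries were tightly grouped and all MEOX2 libraries lay above them. The row of OAS2 (ENSOARG00000009097) lies on chromosome 17 (61009311 to 61042799, minus strand) and held 92 to 154 reads per library. Its log2 change was 0.41 (SE 0.12, limma adjusted p = 0.156; limma voom adjusted p = 0.0344). OAS1, placed on an unassigned scaffold, had 1 to 10 reads per library and was not tested.

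Of the other antiviral effectors, CMPK2, MX1 and SAMD9 were tested. CMPK2, a mitochondrial nucleotide kinase (ENSOARG00000014636, chromosome 3, 16576022 to 16590905, minus strand), was at 3.17, 2.77 and 2.95 FPKM with MEOX2 and at 1.72, 1.78 and 1.72 FPKM in NC. The groups stood well apart, with a 1.71-fold ratio of means and an SD of 0.201 and 0.0332 FPKM (n = 3 each). The log2 change of CMPK2 was 0.53 (SE 0.13; limma adjusted p = 0.0702, the lowest of the 25 members; limma voom adjusted p = 0.0035). It also passed in the limma fit without an intensity trend (adjusted p = 0.0225; 1.31% of all genes called higher).

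MX1, a dynamin-like GTPase that traps viral nucleoproteins (ENSOARG00000010283, chromosome 1, 259737321 to 259762804, plus strand), was at 13.7, 11.5 and 16.1 FPKM with MEOX2 and at 7.74, 9.91 and 10.3 FPKM in NC. MEOX2 sample 2 and NC sample 3 were the closest pair across the groups, and the groups did not overlap. The log2 change was 0.52 (SE 0.14, limma adjusted p = 0.123; limma voom adjusted p = 0.0181). SAMD9, an inhibitor of protein synthesis directed at poxviruses, averaged 9.05 ± 0.0528 FPKM with MEOX2 and 7.92 ± 1.94 FPKM in NC (SD, n = 3 each). Its 3 MEOX2 values were nearly equal, while NC sample 3, at 10.1 FPKM, was the highest of all 6 libraries.

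Neighbours of CMPK2 and MX1 lay below the level for testing. MX2, whose human form restricts lentiviruses, lies 20.5 kb from MX1 and had 15, 12 and 16 reads with MEOX2 and 5, 9 and 9 reads in NC. The MX2 groups did not overlap, at 0.496 ± 0.0834 and 0.260 ± 0.0755 FPKM (SD, n = 3 each). RSAD2 (viperin), an enzyme that makes a chain-terminating nucleotide, lies 12.4 kb from CMPK2 on the opposite strand. RSAD2 had 8, 3 and 7 reads with MEOX2 and 4, 3 and 2 reads in NC, so the libraries overlapped and counting error alone is wide. The exonuclease ISG20 had 1 to 6 reads per library.

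**Figure D2:**
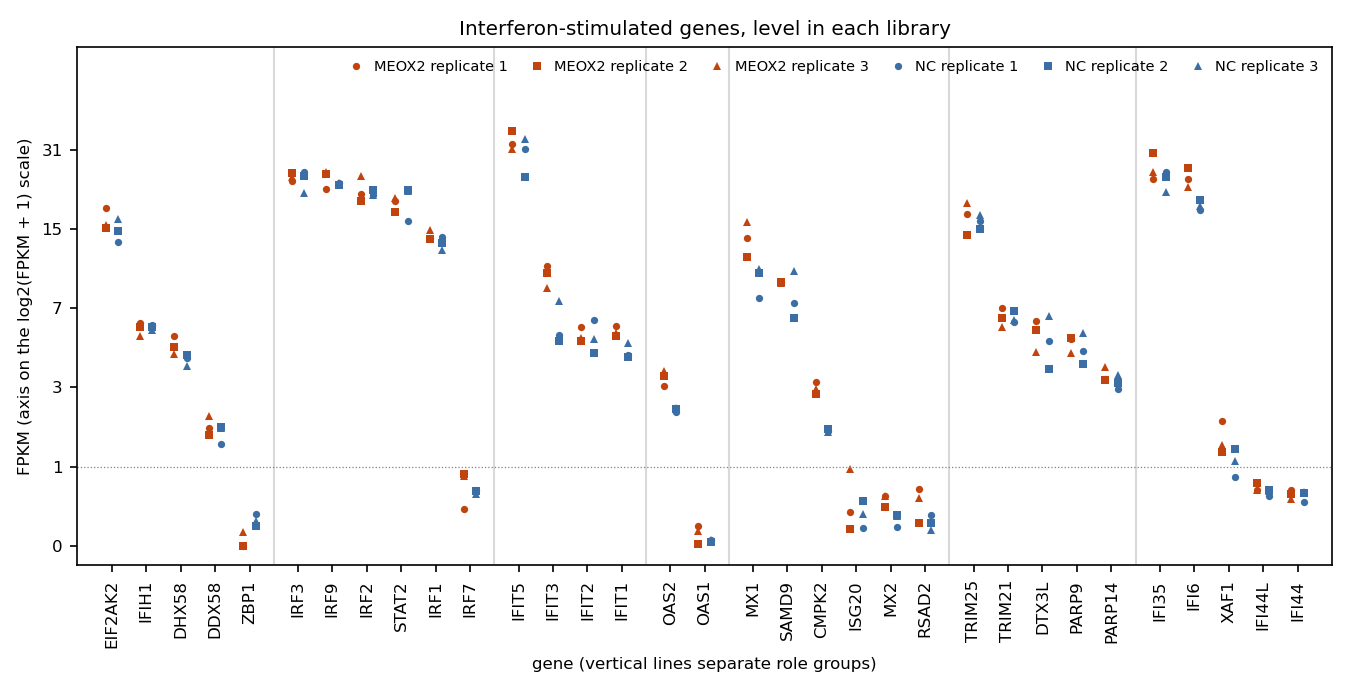
FPKM of the 33 matched members in each of the 6 libraries, on a log2(FPKM + 1) axis, with the symbol shape giving the replicate number and vertical lines separating role groups. The dotted line marks 1 FPKM, and the 8 genes whose mean lies below it were not tested. IFIT3, OAS2, MX1, CMPK2 and IFI6 show MEOX2 points above all NC points, whereas the transcription factors overlap.

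Of the IFI genes, IFI6 had the clearest step. IFI6 (ENSOARG00000003341, a mitochondrial protein that opposes cell death; chromosome 2, 238537980 to 238539929, plus strand) was at 23.8, 26.4 and 22.1 FPKM with MEOX2 and 18.0, 19.6 and 18.6 FPKM in NC, with no overlap. Its log2 change was 0.35 (SE 0.09, limma adjusted p = 0.104; limma voom adjusted p = 0.264). IFI35, which interacts with the protein NMI, was at 23.8, 30.1 and 25.5 FPKM with MEOX2 and 25.5, 24.2 and 21.1 FPKM in NC. MEOX2 sample 2 was the highest library for IFI35 and the groups overlapped (log2 change 0.16, SE 0.11). XAF1, a pro-apoptotic antagonist of XIAP, averaged 1.55 ± 0.377 and 1.09 ± 0.249 FPKM (SD, n = 3 each) and overlapped. IFI44 and IFI44L were under 1 FPKM in every library, with means of 0.568 and 0.662 FPKM in MEOX2 samples and 0.551 and 0.598 FPKM in NC.

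None of the 4 RNA sensors tested had an unadjusted p under 0.05. EIF2AK2 (PKR), the kinase that halts translation on binding double-stranded RNA, was at 18.2, 15.2 and 15.6 FPKM with MEOX2 and 13.3, 14.7 and 16.5 FPKM in NC. NC sample 3 exceeded the MEOX2 samples 2 and 3, so the groups overlapped (log2 change 0.13, 95% interval -0.12 to 0.38). DHX58 (LGP2), a regulator of the sensors RIG-I and MDA5, was at 5.25, 4.70 and 4.35 FPKM with MEOX2 and 4.17, 4.33 and 3.84 FPKM in NC. Its groups did not overlap, but MEOX2 sample 3 and NC sample 2 were almost equal (log2 change 0.17, SE 0.11, limma adjusted p = 0.591). IFIH1 (MDA5) averaged 5.69 ± 0.372 and 5.76 ± 0.147 FPKM, and DDX58 (RIG-I) 1.85 ± 0.234 and 1.69 ± 0.212 FPKM (SD, n = 3 each). The log2 change of IFIH1 was -0.02, with a 95% interval from -0.24 to 0.21.

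ZBP1, a sensor of left-handed nucleic acid that triggers necroptosis, was the only matched member with all its MEOX2 values below its NC values. ZBP1 had 0, 0 and 2 reads with MEOX2 and 5, 3 and 4 reads in NC, far too few to test.

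The transcription factors of the response overlapped between the groups without exception among the 5 tested. IRF3, which turns on interferon genes after a sensor is triggered, was at 23.4, 25.1 and 24.3 FPKM with MEOX2 and 25.4, 24.6 and 20.9 FPKM in NC. NC sample 1 was the highest and NC sample 3 the lowest IRF3 library (log2 change 0.04, 95% interval -0.17 to 0.25). IRF9, the DNA-binding partner of STAT2, averaged 24.0 ± 2.03 FPKM with MEOX2 and 22.8 ± 0.254 FPKM in NC, and STAT2 19.03 ± 1.24 and 19.6 ± 2.98 FPKM (SD, n = 3 each). IRF1 averaged 14.1 ± 0.667 and 13.2 ± 0.762 FPKM, and IRF2, its competitor at DNA, 21.6 ± 2.59 and 20.9 ± 0.580 FPKM. Their log2 changes ran from -0.03 for STAT2 to 0.10 for IRF1. IRF7, the factor that amplifies interferon production, had 8 to 20 reads per library and was not tested.

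The ubiquitin and ADP-ribosyl enzymes also overlapped, with log2 changes of -0.0029 (TRIM21) to 0.10 (DTX3L) over the 5 tested. TRIM25, the ubiquitin ligase that activates RIG-I, was at 17.2, 14.2 and 19.2 FPKM with MEOX2 and 16.2, 14.99 and 17.1 FPKM in NC. The lowest and the highest TRIM25 libraries were both MEOX2 samples. TRIM21, an intracellular antibody receptor, averaged 6.38 FPKM in each group. PARP14, an ADP-ribosyl transferase, averaged 3.44 ± 0.281 and 3.18 ± 0.247 FPKM (SD, n = 3 each).

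DTX3L and PARP9, which act as one complex, are divergent neighbours on chromosome 1 with 6.32 kb between them. DTX3L was at 6.15, 5.62 and 4.45 FPKM with MEOX2 and 5.02, 3.69 and 6.49 FPKM in NC. PARP9 was at 5.11, 5.14 and 4.40 FPKM with MEOX2 and 4.49, 3.92 and 5.44 FPKM in NC. For both genes NC sample 3 was the highest library and NC sample 2 the lowest, so the spread within NC was wider than the difference between the groups.

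ISG15, the ubiquitin-like modifier that is among the most strongly induced genes of the response, is a RefSeq symbol with the synonym ISG17, and the table holds a row of that name (chromosome 12, 49537787 to 49538733, minus strand). The ISG17 row was at 2.46, 4.01 and 2.94 FPKM with MEOX2 and 1.33, 0.978 and 2.59 FPKM in NC, from 6 to 25 reads per library. NC sample 3 lay above MEOX2 sample 1, so the groups overlapped. The log2 change of ISG17 was 0.68 (SE 0.24, limma adjusted p = 0.232; limma voom adjusted p = 0.248). This row was examined after the values were seen and is not counted among the 25. Rows named BST-2A and BST-2B, sheep copies of the virus-tethering protein of the same name, had at most 2 reads in any library.

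**Figure D3:**
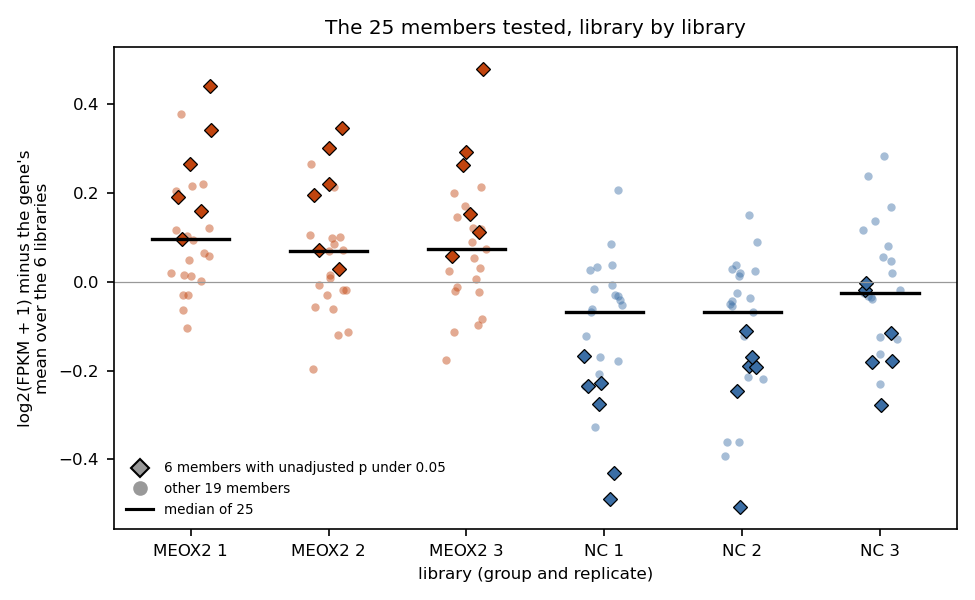
Deviation of each of the 25 members tested from its own mean over the 6 libraries (vertical axis, log2(FPKM + 1)), by library. Outlined diamonds are the 6 members with an unadjusted p under 0.05, which were picked by this same comparison, circles are the other 19, and bars are medians. The median is above 0 in each MEOX2 library and below 0 in each NC library, nearest to 0 in NC 3.

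Taken library by library, the median deviation of the 25 members from their own means was 0.10, 0.07 and 0.07 in the MEOX2 libraries and -0.07, -0.07 and -0.03 in the NC libraries, by replicate number. The number of members above their own mean was 21, 16 and 18 with MEOX2 and 5, 7 and 9 in NC. The summed level of the 25 was 302.5, 304.0 and 305.1 FPKM with MEOX2 and 269.1, 266.0 and 281.6 FPKM in NC, so the sums did not overlap, and the NC library nearest to the MEOX2 libraries was NC sample 3. These counts and sums restate the values behind the log2 changes above and are not separate support. The share of mitochondrial reads, 0.796% to 1.27% with MEOX2 and 0.878% to 1.25% in NC, overlapped between the groups. Without NC sample 3, 10 of the 25 members lay above NC without overlap, against 16.2% of all genes. The 3 that joined were EIF2AK2, SAMD9 and PARP14.

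IFIT3, CMPK2, MX1, OAS2 and IFI6 kept an unadjusted p under 0.05 with each of the 6 libraries left out in turn, up to 0.0409 for OAS2. Of the 929 genes higher at that level, 490 (52.7%) kept it in all of these fits. IFIT1 kept it in only 1 of these fits, with p up to 0.125. The 19 other members had log2 changes of -0.03 to 0.29 with a median of 0.09, and their 95% intervals lay between -0.32 and 0.69. Among these 19, only the interval of XAF1 reached the log2 change of IFIT3.

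The genes upstream of the set were taken from separate lists. Of 10 symbols for interferons, IFNE, IFNK and IFNL1 matched a row, and none had more than 2 reads in any library. Of 11 tested genes of the receptors and the JAK-STAT cascade, 0 were called by limma, against 2.67% of all genes tested. At an unadjusted p under 0.05, 0 of the 11 were higher and 2 lower, against 7.08% and 6.35% of all genes. The median log2 change of the 11 was 0.02. JAK1, the receptor's kinase, was at 91.5, 88.9 and 86.2 FPKM with MEOX2 and 105.2, 97.4 and 109.9 FPKM in NC, without overlap (log2 change -0.23, SE 0.07, limma adjusted p = 0.204). SOCS3, a feedback inhibitor of JAK kinases, averaged 23.2 ± 1.78 and 27.9 ± 3.20 FPKM (SD, n = 3 each; limma adjusted p = 0.337).

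A list of adaptors and kinases that join the sensors to interferon genes also held the sensors MB21D1 and TLR3. Of its 12 tested genes, 0 were called by limma, against 2.67% of all genes tested. The log2 change was below 0 for 10 of the 12 (50.7% of all genes tested), and the median of the 12 was -0.13. The log2 change of TLR3 was -0.30 (SE 0.16, limma adjusted p = 0.488). MB21D1 (cGAS), the sensor of cytosolic DNA, was at 1.14, 1.84 and 1.54 FPKM with MEOX2 and 2.82, 2.27 and 2.33 FPKM in NC, without overlap (log2 change -0.48, SE 0.16, limma adjusted p = 0.206, 13 to 34 reads). It was the only gene of that list with an unadjusted p under 0.05, where 6.35% of all genes tested were lower. MAVS, the adaptor of RIG-I and MDA5, averaged 27.0 ± 1.18 and 30.3 ± 2.04 FPKM (SD, n = 3 each), with all MEOX2 values below NC. MAVS was chosen after its values were seen.

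Of 13 tested genes of retroviral restriction and nucleic acid control, 0 were called by limma, against 2.67% of all genes tested. The median log2 change of the 13 was 0.02. HERC3, a large ubiquitin ligase of the HERC family, was the only gene of the 13 with an unadjusted p under 0.05. At that level 7.08% of all genes tested were higher. HERC3 was at 12.3, 12.6 and 12.3 FPKM with MEOX2 and 10.2, 9.54 and 11.2 FPKM in NC (log2 change 0.25, SE 0.09, limma adjusted p = 0.257). Its relative HERC5 averaged 1.55 ± 0.237 and 1.23 ± 0.0894 FPKM (SD, n = 3 each). Of the interferon-gamma induced genes, 8 of 15 symbols matched a row and only WARS and NMI were tested. CXCL9, CXCL11 and GBP2 were listed at 0 throughout. WARS, the tryptophan tRNA synthetase, was at 183.5, 149.7 and 166.5 FPKM with MEOX2 and 130.2, 138.0 and 133.8 FPKM in NC (log2 change 0.31, SE 0.09, limma adjusted p = 0.130; limma voom adjusted p = 0.0395). NMI, the partner of IFI35, averaged 16.3 ± 0.341 and 15.9 ± 0.499 FPKM (SD, n = 3 each), with a log2 change of 0.04 (SE 0.08).

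**Figure D4:**
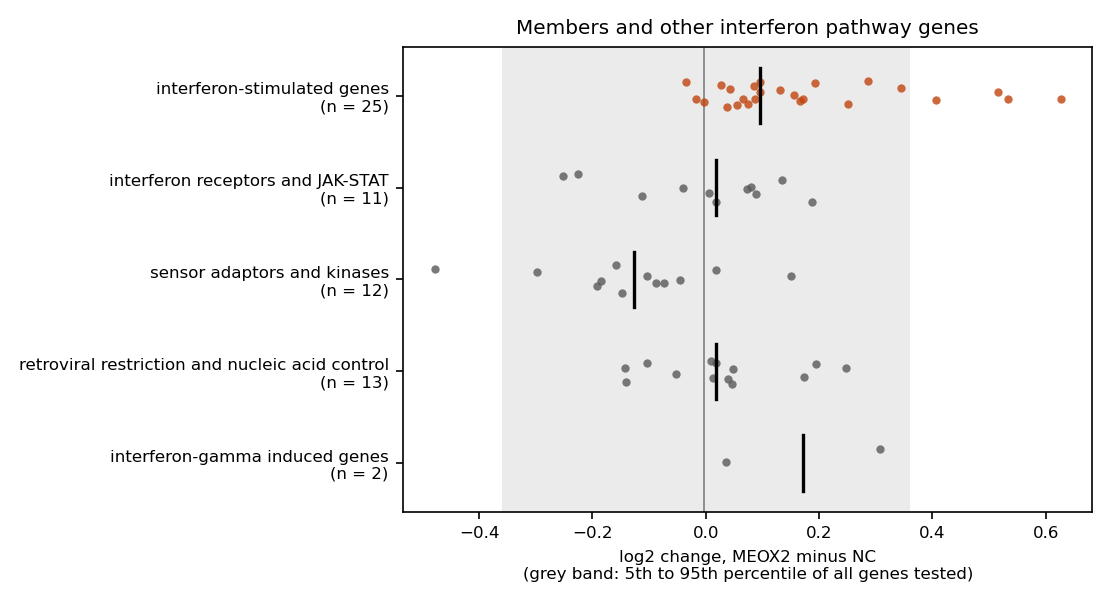
Log2 change (MEOX2 minus NC) of each tested gene, for the 25 interferon-stimulated genes and 4 other lists of the interferon pathway. Black bars are medians, the grey line is the median of all 13121 genes tested and the grey band spans their 5th to 95th percentile, -0.36 to 0.36. The points beyond the band are IFIT3, CMPK2, MX1 and OAS2 above it and MB21D1 below it.

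Blood cells also express many of these genes, and in bulk samples fewer cells of a type and less RNA per cell cannot be told apart. Of 14 leukocyte markers, 13 matched a row and 4 were tested (CD14, CD68, CD163 and LAPTM5). Of these 4, 0 were called by limma, against 2.67% of all genes tested. At an unadjusted p under 0.05, 1 of the 4 was lower, against 6.35% of all genes. A list of 4 genes is too short to read these counts. The log2 change was above 0 for 2 of the 4 and below 0 for 2. The summed level of the 13 was 125.2 to 135.5 FPKM with MEOX2 and 115.5 to 123.3 FPKM in NC, most of it CD14. CD14 averaged 117.0 ± 7.01 FPKM with MEOX2 and 105.2 ± 4.42 FPKM in NC, without overlap (SD, n = 3 each; log2 change 0.15, SE 0.08). CD68 was lower with MEOX2, at 7.57 ± 1.56 FPKM against 9.37 ± 0.469 FPKM in NC, and overlapped (SD, n = 3 each; log2 change -0.29, SE 0.13). The defining leukocyte gene PTPRC had at most 2 reads in any library, and CD4, MS4A1 and CD74 were listed at 0. CD163, a macrophage receptor, averaged 1.38 ± 0.0442 FPKM with MEOX2 and 2.32 ± 0.420 FPKM in NC (SD, n = 3 each; limma adjusted p = 0.170; limma voom adjusted p = 0.0134). LAPTM5 averaged 2.34 ± 0.684 and 1.59 ± 0.269 FPKM in the same order and overlapped (limma adjusted p = 0.474). FCER1G, from 0 to 7 reads and not tested, was at 1.41 ± 0.725 and 0.425 ± 0.368 FPKM without overlap (SD, n = 3 each). Of 7 markers of plasmacytoid dendritic cells, the main interferon producers in blood, 5 matched a row and only TCF4 was tested. The summed level of the 5 was 4.14 to 5.57 FPKM with MEOX2 and 5.002 to 6.44 FPKM in NC, most of it TCF4. GZMB was listed at 0. IRF8, another of these markers, averaged 0.124 FPKM with MEOX2 and 0.616 FPKM in NC, without overlap, from 1 to 13 reads. Of 7 endothelial markers, 5 matched a row and only EGFL7 was tested, at 2.52 ± 0.763 and 2.15 ± 0.835 FPKM with MEOX2 and NC (SD, n = 3 each), and CDH5 had at most 4 reads. The part of the CD14 level in the differences above was not tested.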

How the data were processed

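The authors deposited 1 table of FPKM values for the 6 libraries. Per the labels' protocols, RNA was isolated with TRIzol and libraries were made with a NEBNext Ultra kit. Per the submitters' processing notes, the tools were HISAT2 2.0.5, featureCounts 1.5.0-p3, DESeq2 1.20.0, fastp and CASAVA 1.8. The sources used here give neither genome build nor strand setting, so reads of overlapping genes or close copies may be mixed. FPKM times gene length gave back whole reads for 100% of the nonzero values, within 0.001 of a read.

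Genes averaging at least 1 FPKM (13121) were fitted on the log2(FPKM + 1) scale with limma 3.58.1 in R 4.3.3 (intensity trend, MEOX2 against NC, no covariates, Benjamini-Hochberg adjustment over all genes, two-sided, threshold 0.05). The fit was tested on simulated reads. Per-library values are given for members with an unadjusted p under 0.05 and the most abundant member of each role; other genes so shown were chosen after their values were seen. Members and lists were chosen with earlier results of these data known. Alternatives were other pseudocounts, filters, scalings and variance models, limma voom on the recovered reads, a replicate block and each library left out. Counting the ISG17 row as a member was added after seeing the data. Promoter and protein sequences were not used here, and some genes of the lists are not reported here. Figures were drawn with matplotlib 3.10.9 in Python 3.11.15.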

Additional observations from a re-analysis of the deposited data

How the results depend on the processing

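MEOX2 passed the threshold in every fit, and no member with an unadjusted p under 0.05 changed sign in any. The count of members called, 0 of 25 here, was 4 with limma voom and 1 without the intensity trend (CMPK2), and 0 to 1 with single libraries left out. Members higher at an unadjusted p under 0.05 were 3, and members higher without overlap 4, with a filter at a mean of 5 FPKM, where only 18 members were tested. The 6 and 7 became 5 to 7 and 7 to 10 with single libraries left out. Of all genes, 7.30% were higher at that p with the filter, and 5.50% to 7.77% with single libraries left out. A lack of overlap is easier to reach with fewer libraries: without NC sample 3, 16.2% of all genes were higher without overlap, against 9.60% with all 6. For the filter and the other fits with a library left out, that share is not given here, so their counts without overlap carry no reading. Lower without overlap was 1 member when NC sample 1 was left out, and 0 members when any other single library was. The median log2 change of the members, 0.10, was 0.13 with a pseudocount of 0.1 and 0.13 with limma voom, and 0.0815 to 0.16 with single libraries left out. The 350 genes called over all genes were 194 without a filter, 574 with limma voom, and 117 (without NC sample 1) to 276 (without NC sample 3) with single libraries left out. With the replicate block, 242 genes and 0 members were called, and the median stayed at 0.10. Same-numbered samples did not deviate together (r = -0.0747, 0.0204 and -0.0042 over 13121 genes), so the numbers were not taken as pairs, and not every sample correlated best with its own number. With the ISG17 row counted, 7 of 26 members were higher at an unadjusted p under 0.05 and the median was 0.11. Read numbers such as the 90 to 116 of IFIT1 per library, and 3 samples a group, limit what can be called.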

Other observations

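SLC8B1, a mitochondrial sodium-calcium exchanger whose row ends 31.1 kb from that of OAS2 on chromosome 17, fell from 25.4 ± 0.630 FPKM in NC to 18.2 ± 2.03 FPKM with MEOX2 (SD, n = 3 each; log2 change -0.46, SE 0.10, limma adjusted p = 0.0445), opposite in direction to OAS2. SLC8B1 lost that call with any 1 library left out (adjusted p = 0.0703 to 0.151). LIPA, the lysosomal acid lipase gene 56.5 kb from IFIT3, averaged 76.9 ± 6.94 and 79.1 ± 5.16 FPKM with MEOX2 and NC (SD, n = 3 each), and its log2 change was -0.04 (SE 0.09). KPNA1, an importin 74.5 kb from DTX3L, averaged 24.2 ± 0.325 and 20.1 ± 2.19 FPKM (SD, n = 3 each; limma adjusted p = 0.246) without overlap. These genes were chosen after their values were seen.

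IRF8, a transcription factor of myeloid and dendritic cells that also takes part in interferon responses, was below the level for testing. It was at 0.0658, 0.0602 and 0.245 FPKM with MEOX2 and 0.811, 0.673 and 0.364 FPKM in NC, from 1 to 13 reads per library, and its groups did not overlap. IRF8 was chosen after its values were seen.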
